A study of Mus musculus with 30 samples.

Results

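The comparison described here is the 48 h time point after bilateral olfactory bulbectomy against the 0 h time point in mice labelled SR-A mutant. The study removed both olfactory bulbs of 6-week-old mice and measured RNA of the microdissected olfactory epithelium on Affymetrix MG-U74Av2 arrays. Of the 30 arrays of the series, 6 belong to the comparison, chosen by the genotype and time in their labels. They are 3 arrays of SR-A mutant mice at 48 h and 3 arrays of SR-A mutant mice at 0 h. Where a difference from the other genotype is given, 3 arrays labelled wild type at 48 h and 3 labelled wild type at 0 h were used, and mutant-labelled arrays at 8 h and 16 h, 3 each, give the course in between. SR-A is the class A macrophage scavenger receptor, which the gene Msr1 encodes, and both the 48 h and the 0 h mice carried the mutant label. The labels give no strain, sex or allele, and do not say what the 0 h mice underwent. Nothing in them ties each array to its own animal. A p-value here therefore sets a change against the variation among these arrays only, and that variation may be technical.

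The olfactory epithelium lines part of the nasal cavity and holds olfactory sensory neurons, which send their axons to the olfactory bulb, sustentacular cells that support them and carry much of the xenobiotic metabolism of the nose, basal stem cells, glands and the ensheathing glia of the axon bundles beneath. Removing the bulb cuts the axons from their target. The mature neurons then die over days, macrophages enter and clear them, and basal cells make new neurons. SR-A binds modified lipoproteins and other polyanionic ligands on macrophages.

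Each value is a signal in arbitrary units, which the authors had scaled to a common trimmed mean on every array. Changes are differences between the group means of log2 signals, 48 h minus 0 h, given ± the standard error from the fit, with 3 arrays in each group. They come from limma, fitted over 27 arrays of 9 groups, after signals below 115.9 had been raised to that floor. A probe set is called when its Benjamini-Hochberg adjusted p over the 6917 probe sets tested is under 0.05, and every adjusted p below is of this kind. The 48 h arrays varied more among themselves than the 0 h arrays, with a median SD of 0.196 at 48 h and 0.142 at 0 h on the log2 scale. Pearson correlations between arrays were 0.959 to 0.962 within 48 h, 0.976 to 0.979 within 0 h and 0.940 to 0.963 between the times. The highest value between the times, of 48 h replicate 1 with 0 h replicate 2, was above every value within 48 h. The mutant-labelled 2 h arrays were left out of the fit because their Gapdh 3' to 5' log2 difference, a sign of RNA quality, reached 5.59, against -0.30 to -0.23 in the 48 h arrays and -0.28 to -0.13 in the 0 h arrays. For actin that difference was 0.80 to 1.11 at 48 h and 0.52 to 0.65 at 0 h, and the part of this shift in the results below was not tested.

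Msr1 itself does not check the genotype label. Its brighter probe set read 469.7, 440.9 and 297.5 in the 48 h arrays, against 543.9, 548.5 and 451.2 in the 0 h arrays. The highest 48 h array lay above the lowest 0 h array, and the two-sided exact permutation test gave p = 0.2, where 3 against 3 arrays cannot go below 0.1. The arrays labelled wild type read lower, at 169.1 to 295.1 at 48 h and 83.1 to 173.8 at 0 h. The dimmer probe set read 203.9, 188.0 and 194.0 at 48 h, against 202.3, 206.0 and 232.1 at 0 h, with an exact p of 0.2. Neither probe set passed the filter on low signals, and no direction was drawn from them.

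The tissue carried its labelled markers. Of 26 marker genes of olfactory epithelium cells 16 are listed in the probe table, and 13 of these lay above the floor on all 6 arrays, among them Omp, Cnga2, Cyp2f2, Foxj1 and Sox10. Omp, the olfactory marker protein of mature sensory neurons, was among the brightest at 19230 to 26773 in the 48 h arrays and 32772 to 36516 in the 0 h arrays. Krt5, Krt14 and Krt15, keratins of basal cells, were at or below the floor on all 6.

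Of 6917 probe sets tested 916 were called (13.2%), 449 higher at 48 h (6.49%) and 467 lower (6.75%). At an unadjusted p under 0.05 there were 2009. The changes were mostly small, with a median size of 0.54 among the called. Only 111 called probe sets differed by more than 2-fold, 39 of them higher and 72 lower, and 11 by more than 4-fold, 5 higher and 6 lower. The arrays of the groups did not overlap for 853 of the 916, against 1826 (26.4%) of all tested probe sets. With the brightest probe set taken for each gene, 377 of 5356 genes rose (7.04%) and 361 fell (6.74%), while the median of all genes moved by 0.02. Each count of list members below is to be read beside these shares of all genes. The count of 916 rests on the shared spread: a fit of the 6 arrays alone called 204, of which 191 were among the 916. Of 136 named genes called, 72 stayed called in that fit and 64 did not, among them Snap25, Hspa5, Sox10, Ephx1, Stmn4 and Atf4. Leaving out an array gave 548 called without 48 h replicate 3, 567 without 0 h replicate 2 and 569 without 0 h replicate 1.

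**Figure D1:**
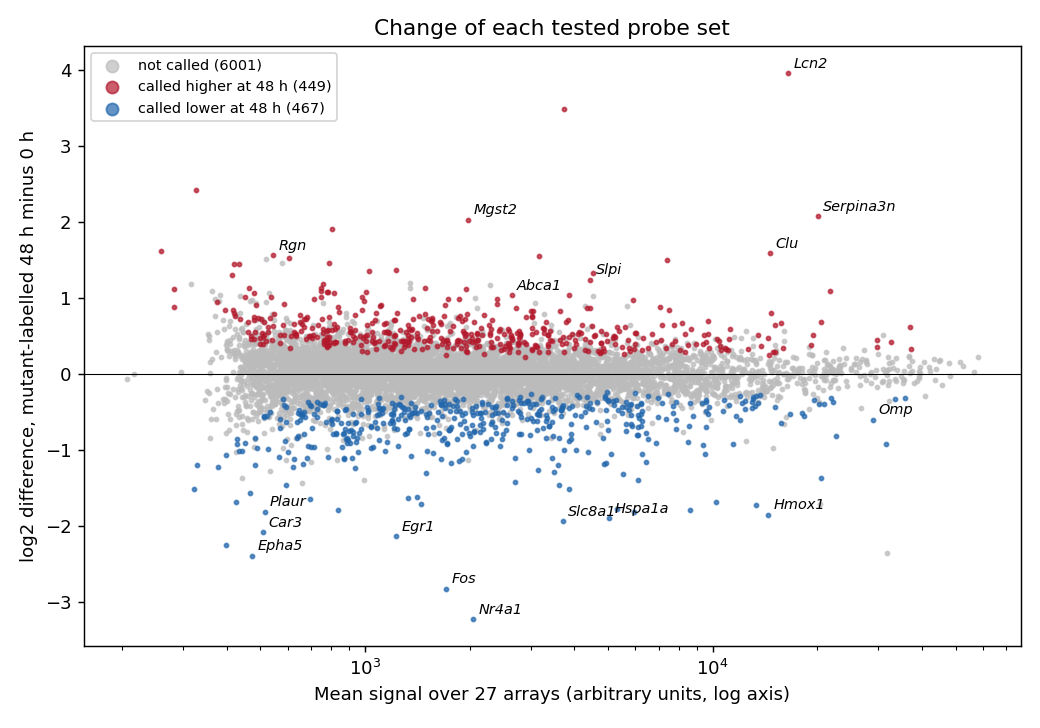
Log2 difference between mutant-labelled 48 h and 0 h arrays (vertical axis) against the mean signal over 27 arrays (horizontal log axis) for each of the 6917 tested probe sets. Red points are the 449 called higher at 48 h and blue points the 467 called lower. Lcn2 at 3.96 and Nr4a1 at -3.23 lie farthest from 0 among the named genes.

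The largest rise was in Lcn2, which encodes lipocalin 2, a secreted protein that binds bacterial siderophores and is part of the acute phase response. Lcn2 read 27508, 24154.5 and 26081 in the 48 h arrays, against 1763, 1784 and 1464 in the 0 h arrays. The groups lay far apart, with a log2 difference of 3.96 ± 0.28 (adjusted p = 5.06e-09). A dimmer Lcn2 probe set read 434, 575 and 713 in the 48 h arrays, against 387, 376 and 436 in the 0 h arrays, without overlap, and its difference of 0.50 ± 0.19 did not pass (adjusted p = 0.0803). Serpina3n, a serine protease inhibitor induced in inflamed tissue and reactive glia, read 23388, 32594 and 27594 in the 48 h arrays, against 7114, 5564 and 7062 in the 0 h arrays. Every 48 h array was above every 0 h array, and the difference was 2.08 ± 0.26 (adjusted p = 2.75e-05). The largest rises were chosen among genes without overlap, so this trait was set by the choice. The promoters of these leading rises are shown because both genes are known targets of the C/EBP transcription factors, whose own transcripts are described further on. Each is 250 bases before to 50 after the RefSeq start in GRCm38.p6, 5' to 3' on the gene's strand, and capitals mark the C/EBP core TTNNGNAA on either strand, Lcn2 at chr2:32387690-32387989 on the minus strand and Serpina3n at chr12:104406458-104406757 on the plus strand.
Lcn2: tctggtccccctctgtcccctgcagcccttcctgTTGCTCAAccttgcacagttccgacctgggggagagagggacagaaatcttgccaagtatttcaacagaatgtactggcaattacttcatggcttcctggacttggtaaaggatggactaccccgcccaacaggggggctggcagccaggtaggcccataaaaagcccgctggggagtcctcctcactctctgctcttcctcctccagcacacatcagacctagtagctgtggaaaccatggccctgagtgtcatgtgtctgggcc
Serpina3n: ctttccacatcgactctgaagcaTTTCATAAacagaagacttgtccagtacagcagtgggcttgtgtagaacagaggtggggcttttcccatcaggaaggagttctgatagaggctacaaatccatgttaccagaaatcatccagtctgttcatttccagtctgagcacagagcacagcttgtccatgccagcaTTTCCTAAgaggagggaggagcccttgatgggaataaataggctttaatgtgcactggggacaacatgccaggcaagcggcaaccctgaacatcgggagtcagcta
The match lies at position -216 from the start in Lcn2 and at -227 and -56 in Serpina3n. The core is common, in 40.7% of 32851 promoters of this length in the table and in 4 of the 5 acute phase genes that rose, a gene being counted if any of its starts held it.

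Among 16 tested acute phase genes 5 rose and 2 fell, with a median difference of 0.45 against 0.02 over all genes; the number that rose was 3 without 48 h replicate 3. Slpi, the secretory leukocyte protease inhibitor, read 5565, 6628 and 5530.0 in the 48 h arrays, against 2830.5, 2359.7 and 2318.5 in the 0 h arrays on its brighter probe set, and its difference was 1.24 ± 0.16 (adjusted p = 3.04e-05). The other Slpi probe set moved more, reading 6004, 6396 and 4102 at 48 h, against 495.5, 621 and 362 at 0 h, a difference of 3.49 ± 0.29 (adjusted p = 5.27e-08). Both probe sets of Slpi separated the times without overlap. The falls in the list were those of transcription factors that drive acute phase genes. Cebpd read 3696, 3504 and 4309 in the 48 h arrays, against 9943, 7298 and 8593 in the 0 h arrays. The change of Cebpd was -1.16 ± 0.28 (adjusted p = 0.00832), and Cebpb read 4448, 4576 and 4758 in the 48 h arrays, against 8101, 6899 and 7299.8 in the 0 h arrays. The change of Cebpb was -0.69 ± 0.10 (adjusted p = 0.000157). In both, every 48 h array was below every 0 h array. Saa3, a serum amyloid A protein of inflamed epithelium and macrophages, stayed near or below the floor with 85.4, 131 and 224 at 48 h, against 113, 64.5 and 26.4 at 0 h.

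Several other genes were among the 12 largest rises. Mgst2, a microsomal glutathione transferase that also makes leukotriene C4, read 5584, 4800.5 and 5207 in the 48 h arrays, against 933, 1352.5 and 1618 in the 0 h arrays. Mgst2 rose by 2.03 ± 0.32 (adjusted p = 0.000289). Rgn encodes regucalcin, a calcium-binding gluconolactonase, and read 1109.6, 1172 and 1162 in the 48 h arrays, against 452, 365.5 and 354 in the 0 h arrays, with little spread at 48 h and a difference of 1.56 ± 0.21 (adjusted p = 4.19e-05). Ptger2, a prostaglandin E2 receptor, read 805, 943 and 723 in the 48 h arrays, against 220.5, 285 and 368 in the 0 h arrays, and Ifi30, a lysosomal thiol reductase used in antigen processing, read 1298, 1442 and 1475 in the 48 h arrays, against 514, 409 and 629 in the 0 h arrays. Their differences were 1.52 ± 0.37 for Ptger2 (adjusted p = 0.00908) and 1.46 ± 0.23 for Ifi30 (adjusted p = 0.000354). Ccl9, a macrophage chemokine, read 4856.5, 7931 and 5215 in the 48 h arrays, against 2673, 2164.5 and 2194 in the 0 h arrays. The change of Ccl9 was 1.33 ± 0.23 (adjusted p = 0.000702). Clca3a1, a secreted regulator of chloride conductance, had 1.45 ± 0.26 (adjusted p = 0.000861). Of the groups described here, Clca3a1 was above the filter on low signals in 48 h arrays only, under both labels. D17H6S56E-5 rose by 1.56 ± 0.35 (adjusted p = 0.00617). In all of these genes the 48 h arrays lay above the 0 h arrays without overlap, but the 12 were chosen among called genes without overlap. Of all tested probe sets 26.4% did not overlap in either direction. Mob2 and Bcan, the proteoglycan brevican, are also among the 12 largest rises, but their calls were lost when any of several arrays was left out. Mob2 was at least 5.37-fold higher at 48 h, with 697, 701 and 1064 at 48 h, against 65.5, 250.4 and 99.4 at 0 h (adjusted p = 0.0311), and its adjusted p was 0.0606 without 48 h replicate 2, 0.105 without 48 h replicate 3, 0.0945 without 0 h replicate 1 and 0.0909 without 0 h replicate 3. Bcan differed by 1.62 ± 0.47 (adjusted p = 0.0257), and its adjusted p was 0.0809 without 48 h replicate 2, 0.0524 without 48 h replicate 3, 0.0658 without 0 h replicate 1 and 0.128 without 0 h replicate 3. In a fit of the 6 arrays alone the adjusted p was 0.00775 for Mob2 and 0.0583 for Bcan. Of the groups described here, Bcan was above the filter on low signals in mutant-labelled 48 h arrays only. It was therefore tested because of the group in which it was high.

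**Figure D2:**
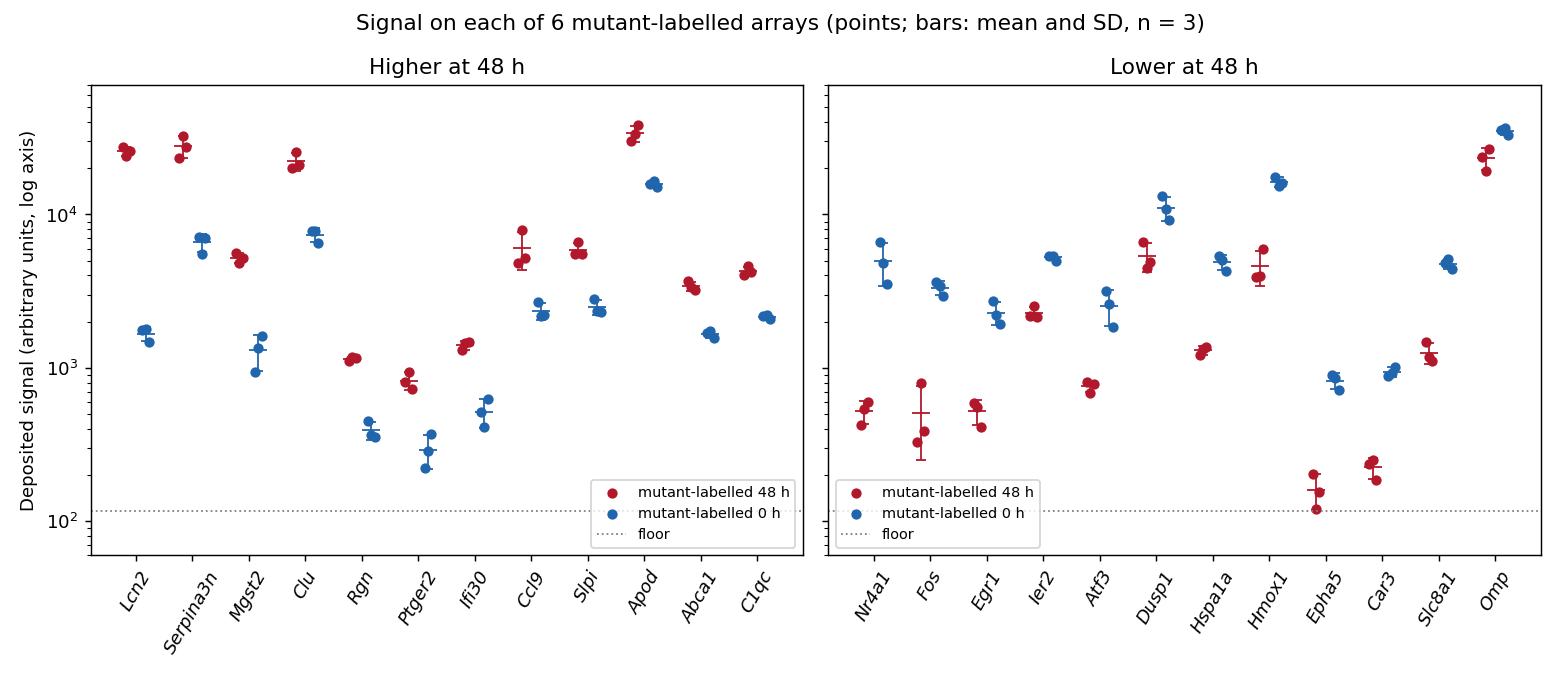
Deposited signal (log axis) on each of the 6 mutant-labelled arrays for 12 genes called higher at 48 h (left) and 12 called lower (right), with 48 h in red left of 0 h in blue. Points are arrays and bars are means with SDs (n = 3). No gene shown has overlapping groups, which the choice of the largest rises and falls required. Lcn2 sits at 24155 to 27508 at 48 h and 1464 to 1784 at 0 h.

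Some genes of macrophages, of complement and of lysosomes rose, while others of each list did not pass. These lists share risen genes, so their counts are not separate. The C1q genes are in the macrophage and complement lists, and Apoe and Cd68 in the macrophage and scavenger lists. Cd68 is also in the lysosomal hydrolase and membrane list, and Ctss is in the macrophage and cathepsin lists. Of 25 tested macrophage and myeloid genes 8 rose, with a median of 0.13; the number was 3 without 48 h replicate 2, 5 without 48 h replicate 3, 4 without 0 h replicate 2, 5 without 0 h replicate 3 and 4 in a fit of the 6 arrays alone. C1qc, a chain of the complement starter C1q that macrophages make, read 4030.2, 4598 and 4186 in the 48 h arrays, against 2170.3, 2196 and 2094 in the 0 h arrays, a clean separation, and rose by 0.99 ± 0.18 (adjusted p = 0.00117). Apoe, the lipid carrier of glia and macrophages, read 28307, 32205 and 31495 in the 48 h arrays, against 17174, 20003 and 20324 in the 0 h arrays. Apoe rose by 0.68 ± 0.15 (adjusted p = 0.00518). Cd68, a glycoprotein of macrophage lysosomes, read 1536, 1969 and 1754 in the 48 h arrays, against 1041, 1125 and 1187 in the 0 h arrays, without overlap, and rose by 0.64 ± 0.16 (adjusted p = 0.00926). In the complement list 5 of 12 rose and 1 fell, with a median of 0.49, and the number that rose was 2 without 48 h replicate 2, 2 without 48 h replicate 3, 2 without 0 h replicate 1, 2 without 0 h replicate 2, 2 without 0 h replicate 3 and 3 in a fit of the 6 arrays alone. Clu, clusterin, a secreted chaperone that also inhibits complement, read 19989.9, 25578 and 20991.5 in the 48 h arrays, against 7776, 7793 and 6479 in the 0 h arrays. The change of Clu was 1.59 ± 0.21 (adjusted p = 3.20e-05), and its second probe set gave 1.50 ± 0.23 (adjusted p = 0.000215). Cd55, which speeds the decay of complement convertases, went the other way with 937, 1063.5 and 981 in the 48 h arrays, against 2237, 2055.5 and 2422 in the 0 h arrays, a fall with a difference of -1.17 ± 0.14 (adjusted p = 1.98e-05). The summed signal of the macrophage and myeloid list was 88889.9 to 103783 in the 48 h arrays and 72681 to 83586.5 in the 0 h arrays. Apoe, at 28307 to 32205 at 48 h and 17174 to 20324 at 0 h, is a large part of that sum, and 17 of the 25 tested members were not called. As this is whole tissue, more cells of a type and more RNA per cell cannot be told apart, and the same holds for falls.

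Scavenger and lipoprotein handling genes other than Msr1 rose in 7 of 16 tested, and the other 9 did not pass; the median was 0.28. Abca1, which exports cholesterol from cells and is induced by sterol-loaded macrophages, read 3680.3, 3352 and 3223 in the 48 h arrays, against 1689.6, 1749.8 and 1566 in the 0 h arrays. Abca1 rose by 1.03 ± 0.11 (adjusted p = 3.92e-06). Its second probe set gave 1.07 ± 0.21 (adjusted p = 0.00241), so the probe sets moved alike. Lrp2, megalin, an endocytic receptor of epithelia, read 2733, 2612 and 2595 in the 48 h arrays, against 1515, 1275.5 and 1849.8 in the 0 h arrays. Lrp2 rose by 0.79 ± 0.12 (adjusted p = 0.000289). The cholesterol synthesis genes fell in 5 of 13 tested, with a median of -0.21; the count was 2 without 48 h replicate 3, 2 without 0 h replicate 1, 3 without 0 h replicate 2 and 2 in a fit of the 6 arrays alone. Msmo1, a sterol oxidase, read 1328, 840.4 and 899 in the 48 h arrays, against 2356, 2173 and 2144 in the 0 h arrays. Msmo1 differed by -1.15 ± 0.19 (adjusted p = 0.000384). Idi1, an isoprenoid isomerase, read 1857, 1278.5 and 1392 in the 48 h arrays, against 2663, 3069 and 2675 in the 0 h arrays. Idi1 differed by -0.91 ± 0.20 (adjusted p = 0.00482). Abca1 was thus higher and these synthesis genes lower on the same arrays. Of 14 lysosomal cathepsins 6 rose and 1 fell, and the rises numbered 3 without 48 h replicate 2, 2 without 0 h replicate 2 and 1 in a fit of the 6 arrays alone. Ctsl, cathepsin L, read 8573, 6826 and 8927 in the 48 h arrays, against 3857, 4535 and 4849.9 in the 0 h arrays. Ctsl rose by 0.87 ± 0.17 (adjusted p = 0.00179). Ctse, cathepsin E, rose by 0.54 ± 0.12 (adjusted p = 0.00372). Other lysosomal hydrolase and membrane genes rose in 8 and fell in 2 of 35, with a median of 0.04 against 0.02 over all genes, the rises numbering 4 without 48 h replicate 2, 3 without 48 h replicate 3, 3 without 0 h replicate 1, 4 without 0 h replicate 2 and 1 in a fit of the 6 arrays alone. Man2b1, lysosomal alpha-mannosidase, read 2818, 3168 and 3252 in the 48 h arrays, against 1926.5, 2235 and 2289 in the 0 h arrays. Man2b1 rose by 0.52 ± 0.10 (adjusted p = 0.00129).

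Some glial and detoxifying genes were called higher. In the glia and myelin list 4 of 13 rose, with a median of 0.40, the count being 2 in a fit of the 6 arrays alone. Apod, apolipoprotein D, which is abundant in ensheathing glia and Schwann cells after nerve injury, read 30046, 33311 and 38198 in the 48 h arrays, against 15911, 16465 and 15053 in the 0 h arrays. The change of Apod was 1.09 ± 0.13 (adjusted p = 1.59e-05). Sox10, the transcription factor of neural crest derived glia, read 1424, 2228.5 and 2175 in the 48 h arrays, against 1033, 1237 and 1119.7 in the 0 h arrays. Sox10 rose by 0.76 ± 0.16 (adjusted p = 0.00372). Erbb3, the neuregulin receptor of these cells, rose by 0.68 ± 0.15 (adjusted p = 0.00545). None of these genes overlapped between the times. The sustentacular and phase I list rose in 4 and fell in 1 of 22, against 7.04% and 6.74% of all genes. The rises numbered 2 without 48 h replicate 3, 2 without 0 h replicate 1 and 2 without 0 h replicate 3. Ephx1, microsomal epoxide hydrolase, read 12889, 10648 and 11418 in the 48 h arrays, against 8531, 7422 and 8334.5 in the 0 h arrays. Ephx1 rose by 0.52 ± 0.12 (adjusted p = 0.00698). Cbr2, a carbonyl reductase, rose by 0.80 ± 0.15 (adjusted p = 0.00154). Of the groups described here, Cbr2 was above the filter on low signals in 48 h arrays only, under both labels. Phase II and antioxidant genes rose in 5 and fell in 2 of 30, against 7.04% and 6.74% of all genes, so the falls were near their share. The median was 0.05 against 0.02 over all genes, and the rises numbered 1 in a fit of the 6 arrays alone. Gstt2, a glutathione transferase, read 968, 1172 and 1236 in the 48 h arrays, against 665, 719 and 648 in the 0 h arrays. Gstt2 rose by 0.73 ± 0.16 (adjusted p = 0.00552). The falls were Hmox1 and Srxn1, both stress-induced. Hmox1, heme oxygenase 1, read 3886, 3951.5 and 5918 in the 48 h arrays, against 17559.6, 15343.5 and 16025 in the 0 h arrays, far apart, with a difference of -1.86 ± 0.26 (adjusted p = 7.29e-05). Srxn1, sulfiredoxin, read 2563, 1324 and 1583 in the 48 h arrays, against 4088, 4779 and 4092 in the 0 h arrays. Srxn1 differed by -1.30 ± 0.23 (adjusted p = 0.000768), while its other probe set gave 0.41 ± 0.15 (adjusted p = 0.0814).

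**Figure D3:**
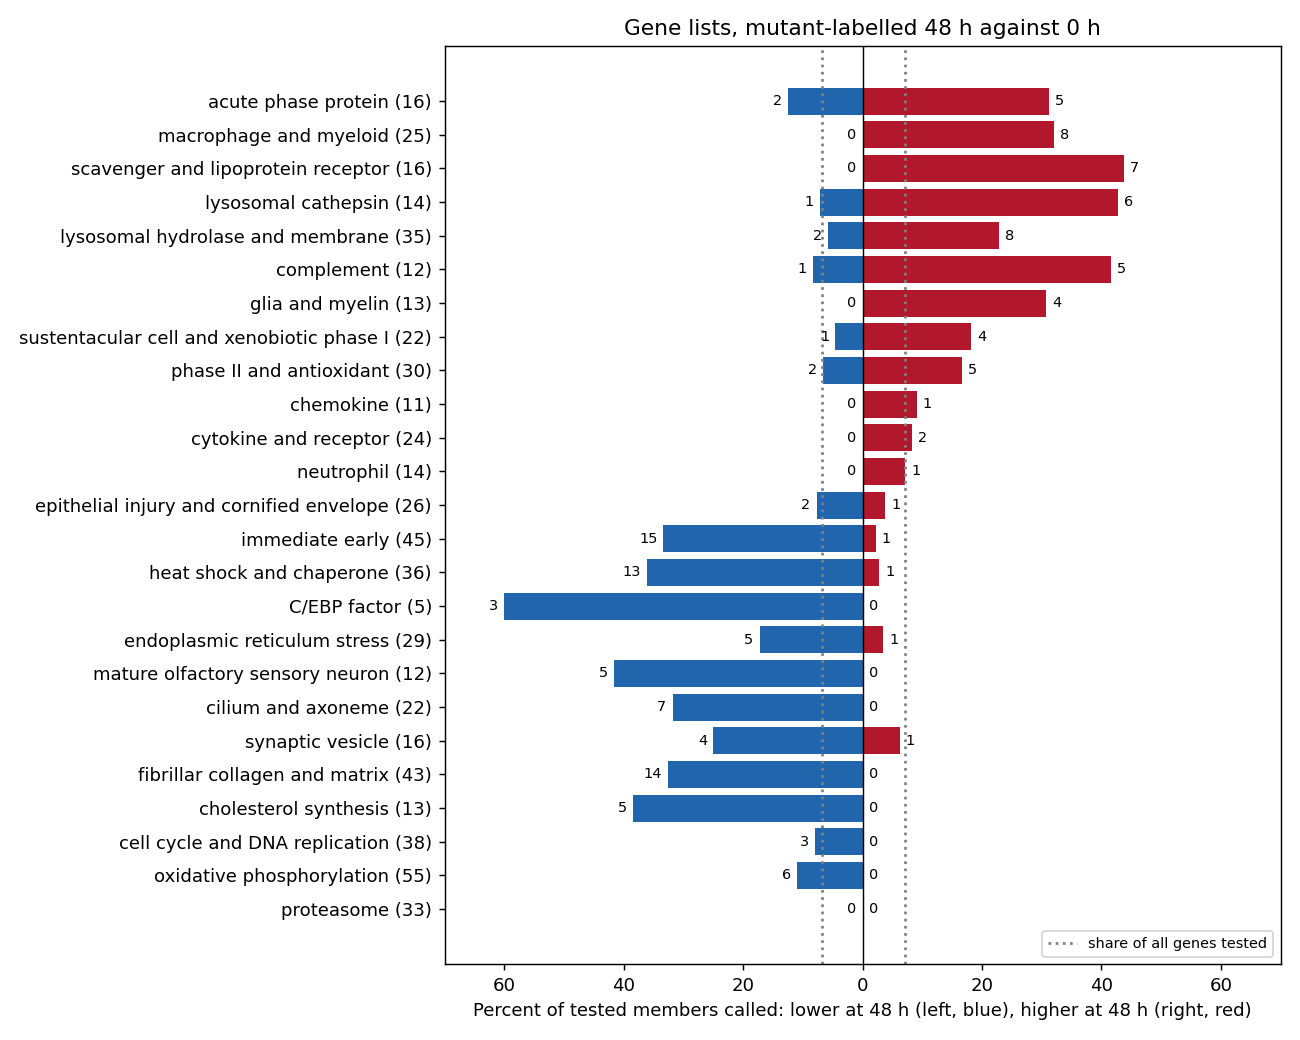
Share of tested members called lower at 48 h (left, blue) and higher at 48 h (right, red) in 25 gene lists, with the number tested in brackets and the counts at the bars. Dotted lines mark the shares over all genes, 6.74% lower and 7.04% higher. Immediate early, heat shock, neuronal, ciliary and matrix lists lie to the left, and macrophage, scavenger, cathepsin and complement lists to the right. Some called genes are counted in several lists.

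Nr4a1 and Fos, the largest called falls, are immediate early genes, which cells switch on within minutes of a stimulus without new protein synthesis. Of 45 tested 15 fell and 1, Gadd45b, named here after its value was seen, rose, with a median of -0.47 against 0.02 over all genes. No immediate early gene rose in the fits without 48 h replicate 2, 48 h replicate 3, 0 h replicate 1 or 0 h replicate 3. Nr4a1, an orphan nuclear receptor, read 424, 542 and 594.5 in the 48 h arrays, against 6600.5, 4851 and 3508 in the 0 h arrays. The 48 h arrays lay close together and far below, a difference of -3.23 ± 0.41 (adjusted p = 2.75e-05). Fos, a subunit of the AP-1 transcription factor, read 327.5, 799 and 389.5 in the 48 h arrays, against 3639, 3419 and 2946 in the 0 h arrays. The change of Fos was -2.83 ± 0.35 (adjusted p = 1.81e-05). The promoters of Nr4a1 and Fos are shown because the cAMP and calcium response of both runs through CRE elements, with capitals for the CRE core TGACG on either strand and for the TATA box TATAAA, Nr4a1 at chr15:101266596-101266895 and Fos at chr12:85473640-85473939, both on the plus strand of GRCm38.p6 (RefSeq).
Nr4a1: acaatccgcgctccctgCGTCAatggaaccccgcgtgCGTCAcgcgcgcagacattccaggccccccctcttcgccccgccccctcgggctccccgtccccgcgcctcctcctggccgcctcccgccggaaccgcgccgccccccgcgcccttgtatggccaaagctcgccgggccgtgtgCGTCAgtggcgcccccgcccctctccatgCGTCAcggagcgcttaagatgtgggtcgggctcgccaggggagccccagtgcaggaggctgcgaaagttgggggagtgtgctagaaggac
Fos: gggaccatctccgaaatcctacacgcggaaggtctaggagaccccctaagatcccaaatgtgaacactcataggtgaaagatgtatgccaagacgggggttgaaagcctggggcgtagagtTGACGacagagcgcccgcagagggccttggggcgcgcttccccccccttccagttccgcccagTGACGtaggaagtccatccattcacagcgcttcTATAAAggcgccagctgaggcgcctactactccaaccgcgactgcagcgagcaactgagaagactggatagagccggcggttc
Nr4a1 holds 4 cores, at -233, -213, -69 and -40, and Fos 2, at -129 and -66, beside a TATA box at -33. The core occurs in 20.8% of all 32851 promoters and in 8 of the 11 immediate early genes that fell and are in the table. A gene was counted if any of its starts in the table held the core, so the shares are not of the same unit.

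Egr1, a zinc finger factor, read 593, 556 and 413 in the 48 h arrays, against 2708, 2207 and 1941 in the 0 h arrays. Egr1 differed by -2.14 ± 0.28 (adjusted p = 3.04e-05). Ier2, a nuclear regulator, read 2163.5, 2529 and 2146 in the 48 h arrays, against 5381, 5369.6 and 4994 in the 0 h arrays, with very little spread, and differed by -1.21 ± 0.10 (adjusted p = 6.13e-08). Atf3, a stress-induced repressor, read 803, 683 and 779.7 in the 48 h arrays, against 3179, 2603 and 1838 in the 0 h arrays. Atf3 differed by -1.72 ± 0.30 (adjusted p = 0.000671), with -2.26 ± 0.27 on its other probe set. Dusp1, a phosphatase that shuts off MAP kinases, read 6659.6, 4509 and 4916 in the 48 h arrays, against 13214, 10828 and 9193 in the 0 h arrays. Dusp1 differed by -1.05 ± 0.16 (adjusted p = 0.000215). In each of these genes all 48 h arrays were below all 0 h arrays.

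Heat shock and chaperone genes fell in 13 of 36 tested, and 1, the ubiquitin ligase gene Stub1, named after its value was seen, rose; the median was -0.34 and the falls numbered 8 without 48 h replicate 3 and 4 in a fit of the 6 arrays alone. No heat shock gene rose in the fits without 48 h replicate 2, 48 h replicate 3 or 0 h replicate 1. Hspa1a, an inducible Hsp70, read 1203, 1328 and 1376 in the 48 h arrays, against 5374, 5039.6 and 4255 in the 0 h arrays. Hspa1a differed by -1.90 ± 0.46 (adjusted p = 0.00868). Hspa1b, a near-identical copy whose probes may take up the same RNA, read 988.5, 1410.2 and 1553 in the 48 h arrays, against 4733, 4703 and 3885.5 in the 0 h arrays. Hspa1b differed by -1.77 ± 0.43 (adjusted p = 0.00914). The Hspa1a promoter is shown with the heat shock element GAANNTTC and the CCAAT box in capitals, at chr17:34972107-34972406 on the minus strand of GRCm38.p6 (RefSeq), and that of Hspa1b differs from it at 4 of 300 positions.
Hspa1a: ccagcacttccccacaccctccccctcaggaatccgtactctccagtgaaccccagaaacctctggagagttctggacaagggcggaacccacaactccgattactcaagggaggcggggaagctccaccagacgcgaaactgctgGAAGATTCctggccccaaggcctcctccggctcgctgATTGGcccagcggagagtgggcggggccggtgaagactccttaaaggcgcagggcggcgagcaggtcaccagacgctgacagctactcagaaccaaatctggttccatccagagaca
The element lies at -104 and the CCAAT box, read on the other strand, at -67. The element occurs in 7.86% of all promoters and in 6 of the 12 heat shock genes that fell and are in the table, and also in the 1 that rose. Here too a gene was counted if any of its starts held the element. Dnajb1, an Hsp40 partner of Hsp70, read 1074, 1311 and 1318 in the 48 h arrays, against 2706, 2482 and 2361 in the 0 h arrays. Dnajb1 differed by -1.03 ± 0.24 (adjusted p = 0.00753). The endoplasmic reticulum stress list fell in 5 and rose in 1 of 29, against 6.74% and 7.04% of all genes. The falls numbered 2 without 48 h replicate 3, 2 without 0 h replicate 1, 3 without 0 h replicate 2, 3 without 0 h replicate 3 and 1 in a fit of the 6 arrays alone. Atf4, the integrated stress response factor, read 8399.7, 8057.5 and 7468 in the 48 h arrays, against 12234, 11396 and 11023 in the 0 h arrays. Atf4 differed by -0.53 ± 0.09 (adjusted p = 0.000408). Hspa5, the chaperone BiP, read 10623, 11673 and 10681 in the 48 h arrays, against 13981, 14465 and 14069 in the 0 h arrays, a small but separate difference of -0.37 ± 0.09 (adjusted p = 0.0133).

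Genes of mature olfactory sensory neurons fell in 5 of 12 tested, with a median of -0.39, and the other 7 did not pass; the falls numbered 3 in a fit of the 6 arrays alone and 4 without any array other than 48 h replicate 1. Slc8a1, a sodium calcium exchanger, read 1476, 1183 and 1102 in the 48 h arrays, against 4829, 5089 and 4402 in the 0 h arrays, the fall with the smallest p among these, with a difference of -1.94 ± 0.12 (adjusted p = 4.25e-10). Olfm1, olfactomedin 1, a secreted neuronal glycoprotein, read 3596, 1929 and 2073 in the 48 h arrays, against 5854, 5799.6 and 4843 in the 0 h arrays. Olfm1 differed by -1.17 ± 0.17 (adjusted p = 0.000105). Adcy3, the adenylyl cyclase of odorant transduction, read 4123, 2878.5 and 3600.5 in the 48 h arrays, against 6104, 6629 and 5607 in the 0 h arrays. Adcy3 differed by -0.80 ± 0.13 (adjusted p = 0.00054). Omp read 23806, 19230.3 and 26773 in the 48 h arrays, against 35807, 36516 and 32772 in the 0 h arrays. Omp differed by -0.60 ± 0.11 (adjusted p = 0.000978), and its adjusted p was 0.0753 in a fit of the 6 arrays alone. Omp was no exception, as 64 of the 136 named genes called did not pass in that fit. The odorant-gated channel subunit Cnga2, chosen after its values were seen, differed by -0.49 ± 0.15 (adjusted p = 0.0362), with 8141.5, 4728 and 6570.2 at 48 h, against 8999, 9293 and 8330.4 at 0 h. Its call held in 1 of the 6 fits that left out an array, and without 48 h replicate 2 its difference was -0.28 (adjusted p = 0.22). Replicate 2 was the lowest of the 48 h arrays for Adcy3, Omp, Olfm1 and Cnga2. The summed signal of the list was 118909 to 137883 in the 48 h arrays and 154836 to 177659 in the 0 h arrays.

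In other neuronal lists part of the members were called. Synaptic vesicle genes fell in 4 and rose in 1 of 16, against 6.74% and 7.04% of all genes, and the falls numbered 2 in a fit of the 6 arrays alone. Syt1, the calcium sensor synaptotagmin 1, read 2069, 1312 and 1912 in the 48 h arrays, against 4572, 3393 and 3383 in the 0 h arrays. Syt1 differed by -1.11 ± 0.15 (adjusted p = 6.37e-05). Snap25, a subunit of the fusion complex, read 4297, 2277 and 2994 in the 48 h arrays, against 5866, 5249 and 4374 in the 0 h arrays. Snap25 differed by -0.73 ± 0.17 (adjusted p = 0.00599). Vsnl1, the neuronal calcium sensor visinin-like 1, read 1498, 799.6 and 1268 in the 48 h arrays, against 4098, 2968 and 2435 in the 0 h arrays. Vsnl1 differed by -1.43 ± 0.24 (adjusted p = 0.000537). Epha5, a receptor for ephrin-A ligands that guides axons, read 204, 119.9 and 155 in the 48 h arrays, against 899, 855 and 717 in the 0 h arrays. The change of Epha5 was -2.39 ± 0.24 (adjusted p = 2.08e-06). Immature neuron and axon growth genes had 3 rises and 2 falls among 27, near the 7.04% and 6.74% of all genes, the rises numbering 1 without 48 h replicate 3 and 0 in a fit of the 6 arrays alone and the falls 1 without 48 h replicate 2, 1 without 48 h replicate 3, 1 without 0 h replicate 1, 1 without 0 h replicate 2 and 1 in a fit of the 6 arrays alone. Stmn4, a stathmin that destabilises microtubules, read 11842, 7036.5 and 10050.0 in the 48 h arrays, against 5180.2, 5664 and 4918 in the 0 h arrays. Stmn4 rose by 0.85 ± 0.18 (adjusted p = 0.00347), while Plxna3, a semaphorin co-receptor, differed by -0.72 ± 0.14 (adjusted p = 0.00187). Gap43, the growth cone protein of immature neurons, read 11382, 9749 and 5807 in the 48 h arrays, against 8289, 9254 and 6488 in the 0 h arrays. Its groups overlapped, and the difference of 0.12 ± 0.22 did not pass (adjusted p = 0.77). Pax6, an eye and olfactory transcription factor, read 1233, 1349.9 and 1103.5 in the 48 h arrays, against 838, 961 and 797 in the 0 h arrays. Pax6 rose by 0.51 ± 0.12 (adjusted p = 0.00742).

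Cilium and axoneme genes fell in 7 of 22 tested, with a median of -0.38, and the falls numbered 4 without 0 h replicate 1 and 2 in a fit of the 6 arrays alone. Mlf1, expressed with motile cilia, read 4569, 3523 and 2688 in the 48 h arrays, against 6959.7, 7560.0 and 7311 in the 0 h arrays. Mlf1 differed by -1.05 ± 0.16 (adjusted p = 0.000175). Spa17, a sperm and cilium protein, read 3336, 3435 and 2941.5 in the 48 h arrays, against 5676, 6848 and 7295.5 in the 0 h arrays. Spa17 differed by -1.02 ± 0.15 (adjusted p = 0.000113). Mns1, needed for motile cilia, differed by -0.90 ± 0.20 (adjusted p = 0.00534). All of these separated the times without overlap.

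Collagen and matrix genes fell in 14 of 43 tested, with a median of -0.35; the falls numbered 8 without 48 h replicate 1, 9 without 0 h replicate 1, 9 without 0 h replicate 3 and 7 in a fit of the 6 arrays alone. Col5a2, a chain of collagen V, read 3116, 4187 and 3252 in the 48 h arrays, against 10287, 7746 and 9646.5 in the 0 h arrays. Col5a2 differed by -1.39 ± 0.22 (adjusted p = 0.000233). Col1a2, a chain of collagen I, read 11492, 17641 and 9331 in the 48 h arrays, against 34987, 28669.6 and 32889.5 in the 0 h arrays. Col1a2 differed by -1.37 ± 0.23 (adjusted p = 0.000459), but its dimmer probe set gave 0.22 ± 0.11 (adjusted p = 0.192). Col3a1, collagen III, differed by -1.05 ± 0.22 (adjusted p = 0.00397), and its other tested probe sets gave -1.46 ± 0.26 and -1.02 ± 0.20. Eln, elastin, read 877, 1555 and 1464 in the 48 h arrays, against 2687, 2518 and 3059 in the 0 h arrays. Eln differed by -1.12 ± 0.22 (adjusted p = 0.00215). Serpinh1, the collagen chaperone, differed by -1.19 ± 0.26 (adjusted p = 0.00413). Mmp14, a membrane-bound collagenase, read 1506, 1799.5 and 2285 in the 48 h arrays, against 4489, 4382 and 4407 in the 0 h arrays, with nearly equal 0 h arrays, and differed by -1.27 ± 0.19 (adjusted p = 0.000184). Replicate 2 was the highest 48 h array for Col5a2, Col1a2, Serpinh1 and Eln.

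Bone and cartilage genes, which mark tissue next to the epithelium, fell in 6 of 11 tested, with a median of -0.88, but the falls numbered 2 without 48 h replicate 2, 1 without 48 h replicate 3, 0 without 0 h replicate 1, 3 without 0 h replicate 2 and 2 without 0 h replicate 3. Ibsp, a bone matrix sialoprotein, read 2408, 2356 and 2783 in the 48 h arrays, against 7104.5, 5479 and 6212.5 in the 0 h arrays. The change of Ibsp was -1.31 ± 0.36 (adjusted p = 0.0202), and its adjusted p was 0.0576 without 48 h replicate 2 and 0.0718 without 0 h replicate 1. Col11a2, a cartilage collagen and among the 12 largest falls, differed by -1.79 ± 0.47 (adjusted p = 0.0156), with an adjusted p of 0.11 without 48 h replicate 3 and 0.0531 without 0 h replicate 1. The summed signal of the bone and cartilage list was 14495.5 to 16728 in the 48 h arrays and 25666 to 30149.7 in the 0 h arrays, and that of the fibroblast list 105975 to 154526 in the 48 h arrays and 166398 to 175212 in the 0 h arrays. Their shift goes with the fall of the matrix genes, and their part in it was not tested. The fibroblast and matrix lists share members. Car3, carbonic anhydrase 3 of muscle and fat, read 236, 252 and 184 in the 48 h arrays, against 884, 922 and 1017.5 in the 0 h arrays. Car3 differed by -2.08 ± 0.30 (adjusted p = 0.00011), while the skeletal muscle list summed to 14802 to 16554 in the 48 h arrays and 11195 to 13652 in the 0 h arrays. Of the groups described here, Car3 was above the filter on low signals in 0 h arrays only, under both labels. It was therefore tested because of the time at which it was high.

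Cell cycle, energy, proteasome, interferon and neutrophil lists were also counted. Of 38 cell cycle and DNA replication genes 3 fell, near the 6.74% of all genes. At an unadjusted p under 0.05 the limma fit had 8 higher and 4 lower. The falls numbered 1 without 48 h replicate 3, 1 without 0 h replicate 2 and 0 in a fit of the 6 arrays alone. Cks2, a subunit of cyclin-dependent kinases, read 1631, 1734 and 1493 in the 48 h arrays, against 2551, 3023 and 2196 in the 0 h arrays. Cks2 differed by -0.67 ± 0.14 (adjusted p = 0.00372). The oxidative phosphorylation list fell in 6 of 55, against 6.74% of all genes, and the falls numbered 13 without 48 h replicate 1, 3 without 48 h replicate 2, 2 without 0 h replicate 2 and 0 in a fit of the 6 arrays alone. Ndufb8, a complex I subunit, differed by -0.51 ± 0.10 (adjusted p = 0.00209). Cycs, cytochrome c, by -0.86 ± 0.17 (adjusted p = 0.00181). The proteasome list had 0 of 33 called by limma, with 2 higher and 3 lower at an unadjusted p under 0.05. Of 23 interferon-stimulated genes 4 rose and 2 fell, against 7.04% and 6.74% of all genes. The rises numbered 2 without 48 h replicate 2, 2 without 48 h replicate 3, 2 without 0 h replicate 1 and 2 in a fit of the 6 arrays alone. The falls numbered 1 without 48 h replicate 1, 0 without 48 h replicate 3, 1 without 0 h replicate 1, 1 without 0 h replicate 2 and 0 in a fit of the 6 arrays alone. Irf1, an interferon regulatory factor, rose by 0.84 ± 0.17 (adjusted p = 0.00207). Of 14 neutrophil genes only Lcn2, which epithelium also makes, was called higher, beside 7.04% of all genes, and the list median was -0.09. The neutrophil list summed to 103758 to 136234 in the 48 h arrays and 87642.5 to 93581 in the 0 h arrays. Lcn2, at 24154.5 to 27508 at 48 h and 1464 to 1784 at 0 h, is part of these sums. They therefore do not show a rise of the other members.

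The mutant-labelled arrays at 8 h and 16 h give the course of the called changes. Over the 449 called rises the median difference from 0 h was 0.09 at 8 h, 0.21 at 16 h and 0.51 at 48 h, and over the 467 called falls it was -0.12 at 8 h, -0.26 at 16 h and -0.58 at 48 h. These medians share the 0 h arrays, and the 48 h value was used to choose the probe sets. Against the 16 h arrays 624 of all tested probe sets were called (9.02%), 4.03% higher and 4.99% lower at 48 h. Against 0 h, 179 (2.59%) were called at 8 h and 356 (5.15%) at 16 h. The named genes followed different courses. Lcn2 averaged 1670.4 at 0 h, 13360.0 at 8 h, 23304 at 16 h and 25914 at 48 h, and its 48 h minus 16 h difference of 0.16 ± 0.28 did not pass (adjusted p = 0.787). Serpina3n averaged 6579.7 at 0 h, 22996 at 8 h, 25744.5 at 16 h and 27859 at 48 h, likewise without a called step after 16 h (adjusted p = 0.846). C1qc averaged 2154 at 0 h, 1867 at 8 h, 2451 at 16 h and 4271 at 48 h, and its 48 h minus 16 h difference was 0.80 ± 0.18 (adjusted p = 0.00747). Abca1 and Mgst2 had called steps as well, of 0.58 ± 0.11 (adjusted p = 0.00293) for Abca1 and 1.73 ± 0.32 (adjusted p = 0.00214) for Mgst2.

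Among the falls, Nr4a1 averaged 4987 at 0 h, 864 at 8 h, 524 at 16 h and 520.2 at 48 h. Fos averaged 3335 at 0 h, 1014 at 8 h, 397 at 16 h and 505 at 48 h, and Egr1 2285 at 0 h, 1053 at 8 h, 507 at 16 h and 521 at 48 h. Their 48 h minus 16 h differences did not pass (adjusted p = 0.9, 0.692 and 0.892 in that order). Omp averaged 35032 at 0 h, 33719 at 8 h, 37436 at 16 h and 23269.7 at 48 h and stepped down between 16 h and 48 h by a called difference of -0.70 ± 0.11 (adjusted p = 0.000593). Slc8a1 averaged 4773 at 0 h, 3473 at 8 h, 2921 at 16 h and 1254 at 48 h, and already differed from 0 h at 8 h, by -0.46 ± 0.12 (adjusted p = 0.0367). Hspa1a was highest at 8 h, with 4889 at 0 h, 15416 at 8 h, 1222 at 16 h and 1302 at 48 h. Its 8 h minus 0 h difference of 1.65 ± 0.46 did not pass (adjusted p = 0.0564), while that of Hspa1b, 1.79 ± 0.43, did (adjusted p = 0.0269). Hmox1 averaged 16309.5 at 0 h, 25035 at 8 h, 10669 at 16 h and 4585 at 48 h. Calb1, the calcium buffer calbindin, averaged 1100.5 at 0 h, 392 at 8 h, 47.3 at 16 h and 601 at 48 h, and all of its 16 h arrays were below the floor. Its 48 h minus 16 h difference of 2.36 ± 0.32 (adjusted p = 0.000142) was taken against the floor and is a lower bound.

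**Figure D4:**
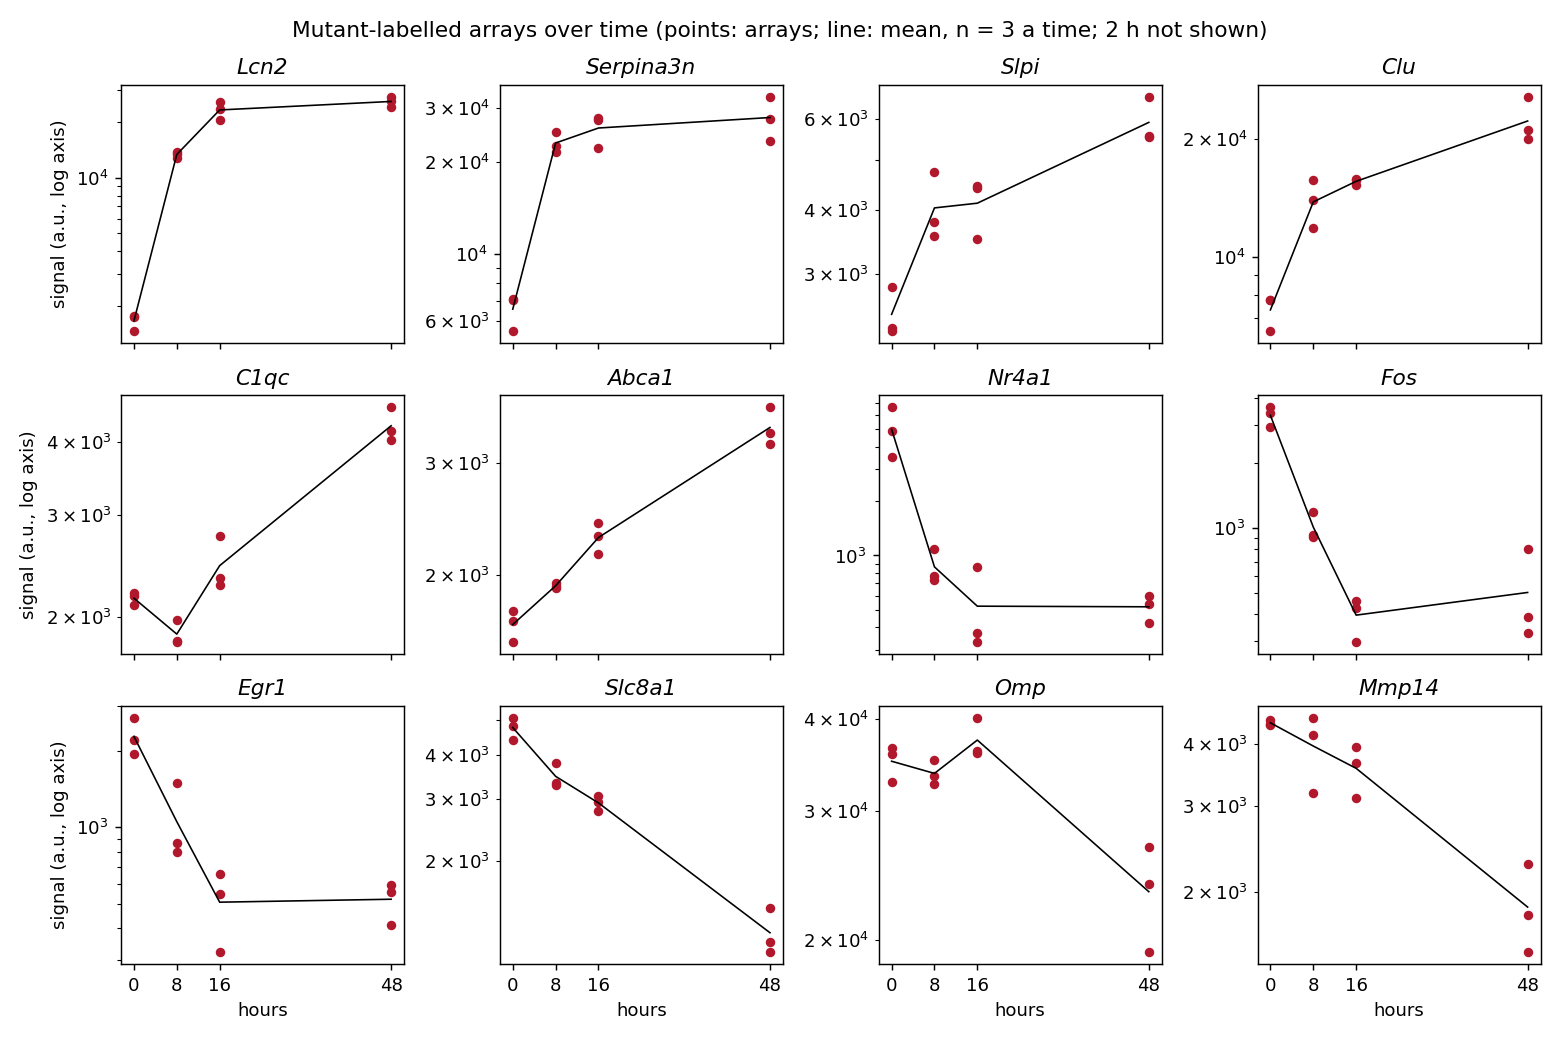
Signal (log axis) of 12 genes on the mutant-labelled arrays at 0, 8, 16 and 48 h (horizontal axis in hours). Points are arrays, lines join group means (n = 3), and 2 h is not drawn. Lcn2, Serpina3n, Nr4a1, Fos and Egr1 have most of their change by 16 h, while C1qc, Omp and Mmp14 change most between 16 h and 48 h.

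The wild-type-labelled arrays show where the change at 48 h differs by genotype label. They share no array with the mutant-labelled comparison and called 1310 probe sets at 48 h against 0 h (18.9%). Of the 916 probe sets called in the mutant-labelled arrays 397 were called in both, 377 of them in the same direction and 20 in opposite directions, which is 41.2% of the mutant-labelled and 28.8% of the wild-type-labelled calls. The test of the difference itself, the mutant-labelled change minus the wild-type-labelled change, called 291 of 6917 (4.21%), 121 positive (1.75%) and 170 negative (2.46%). Of the 519 called in the mutant-labelled arrays alone 73 passed that test. The count fell to 133 without mutant-labelled 0 h replicate 3. Among wild-type-labelled arrays it was 183 without 48 h replicate 1, 177 without 48 h replicate 3, 173 without 0 h replicate 2 and 182 without 0 h replicate 3. A fit of the 12 arrays alone called 85.

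Negative differences were found in chemokine, cytokine, acute phase and epithelial injury genes. Of 11 chemokine genes tested, 1 rose in the mutant-labelled and 5 in the wild-type-labelled arrays, against 9.99% of all genes under the wild type label. The difference was negative and called in 3, against 2.52% of all genes. Of the 29 chemokine genes on the array 18 failed the filter on low signals. A member could pass it through wild-type-labelled 48 h arrays in which it was high, so this count is not separate support. Cxcl2, a neutrophil attractant, read 74.9, 109 and 204 at 48 h, against 139, 58.7 and 82.2 at 0 h in the mutant-labelled arrays and 5200.0, 3463 and 7909 at 48 h, against 101, 145 and 75.4 at 0 h in arrays labelled wild type, a difference of changes of -5.20 ± 0.66 (adjusted p = 7.77e-05). The mutant-labelled arrays stayed near the floor at both times but read 625.8, 281.5 and 467.6 at 8 h and 96.9, 78.1 and 44.0 at 16 h. In the mutant-labelled arrays the median difference of the chemokine list from 0 h was 0.64 at 8 h, 0.07 at 16 h and 0.04 at 48 h. Cxcl1 and Ccl2, chosen after their values were seen, had differences of -4.31 ± 0.71 (adjusted p = 0.00139) for Cxcl1 and -2.98 ± 0.57 (adjusted p = 0.0056) for Ccl2. Of 24 cytokine and receptor genes, 2 rose in the mutant-labelled and 9 in the wild-type-labelled arrays, and 6 had a negative difference (4 without mutant-labelled 0 h replicate 3). Il1b, interleukin 1 beta, also chosen after its values were seen, read 56.1, 319 and 129 at 48 h, against 379.7, 286 and 219.7 at 0 h in the mutant-labelled and 1281, 1028 and 1970.0 at 48 h, against 204, 286 and 239.5 at 0 h in arrays labelled wild type, a difference of -3.29 ± 0.57 (adjusted p = 0.00228).

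Saa3 read 5396, 5732 and 3575 at 48 h, against 196, 139 and 178 at 0 h in arrays labelled wild type, set against the low mutant-labelled values above, and its difference was -4.45 ± 0.49 (adjusted p = 2.26e-05). Of 16 acute phase genes 5 rose in the mutant-labelled and 11 in the wild-type-labelled arrays, and 6 differed, all negative. Lcn2 and Serpina3n rose under both labels (wild type adjusted p = 2.74e-07 for Lcn2 and 2.71e-05 for Serpina3n). They were not among the 6, with differences of 0.93 ± 0.40 (adjusted p = 0.194) for Lcn2 and 0.13 ± 0.37 (adjusted p = 0.879) for Serpina3n. Of 26 genes of epithelial injury and the cornified envelope 1 rose and 2 fell in the mutant-labelled arrays and 20 rose in the wild-type-labelled arrays, and 13 had a negative difference, 7 without mutant-labelled 0 h replicate 3 and 6 in a fit of the 12 arrays alone. Plaur, the urokinase receptor of migrating cells, read 154, 118 and 96.3 at 48 h, against 555, 374 and 441 at 0 h in the mutant-labelled arrays, at least 3.52-fold lower (adjusted p = 4.19e-05), and 916, 656 and 1139 at 48 h, against 559.6, 361 and 438.5 at 0 h in arrays labelled wild type. Its difference was -2.80 ± 0.34 (adjusted p = 5.72e-05). In the mutant-labelled 8 h arrays Plaur read 915, 958 and 707. Mmp3, stromelysin 1, read 8.3, 76.6 and 121 at 48 h, against 82.2, 88.2 and 67.3 at 0 h in the mutant-labelled and 1935, 2417 and 1036 at 48 h, against 141, 101 and 92.1 at 0 h in arrays labelled wild type, a difference of -3.75 ± 0.42 (adjusted p = 2.47e-05). Of the groups described here, Mmp3 and Saa3 were above the filter on low signals in wild-type-labelled 48 h arrays only. They were therefore tested because of the group in which they were high. On the arrays given above, Il1b was also above the filter only at 48 h under the wild type label. Cxcl2 was above it in those arrays and otherwise, in the groups described, only in the mutant-labelled 8 h array reading 625.8. The same limit holds for Il1b and Cxcl2. It also holds for the chemokine, cytokine, acute phase and epithelial injury counts set against the wild type label. Their members could pass the filter through the arrays in which they were high, and how far this raised the counts was not tested. The neutrophil list, whose sums are given above for the mutant-labelled arrays, summed to 168043 to 223865 at 48 h and 83293 to 98488 at 0 h in arrays labelled wild type. These sums also hold Lcn2, at 34958 to 44402 at 48 h and 3686 to 5459 at 0 h in arrays labelled wild type. The part of the neutrophil list in the differences between labels was not tested.

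In some genes the 0 h arrays of the labels also stood apart. Fos averaged 505 ± 256 at 48 h and 3335 ± 354 at 0 h in the mutant-labelled arrays and 1362 ± 311 at 48 h and 2017 ± 271 at 0 h in arrays labelled wild type (SD, n = 3), a difference of changes of -2.25 ± 0.49 (adjusted p = 0.0126). Ier2 averaged 2279.6 ± 217 at 48 h and 5248 ± 220.5 at 0 h in the mutant-labelled arrays and 3391 ± 289.8 at 48 h and 3587 ± 136 at 0 h in arrays labelled wild type (SD, n = 3), a difference of -1.12 ± 0.14 (adjusted p = 7.77e-05). Cebpb averaged 4594 ± 156 at 48 h and 7433 ± 612 at 0 h in the mutant-labelled arrays and 6468 ± 310.0 at 48 h and 4474 ± 608 at 0 h in arrays labelled wild type (SD, n = 3), a difference of -1.23 ± 0.14 (adjusted p = 3.86e-05). In Fos, Ier2 and Cebpb the mutant-labelled 0 h mean was the highest of the 4 groups. Dio2, which makes active thyroid hormone, averaged 582 ± 185 at 48 h and 1784 ± 400.0 at 0 h in the mutant-labelled and 2418 ± 748 at 48 h and 946 ± 121 at 0 h in arrays labelled wild type (SD, n = 3). Both changes were called (adjusted p = 0.000459 and 0.0016), in opposite directions, with a difference of -2.95 ± 0.38 (adjusted p = 9.72e-05).

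Positive differences were fewer among the named genes. Abcc5, an organic anion exporter, read 4507, 4215 and 4608 in the 48 h arrays, against 2779.6, 2590.3 and 2561.5 in the 0 h arrays, a rise of 0.75 ± 0.09 (adjusted p = 7.14e-06). It read 2862, 3228 and 2761 at 48 h, against 3162, 3390.4 and 3355 at 0 h in arrays labelled wild type, and the changes differed by 0.91 ± 0.12 (adjusted p = 0.000111). Calb1 read 538, 711 and 553 in the 48 h arrays, against 882, 1492 and 927 in the 0 h arrays. The change of Calb1 was -0.84 ± 0.32 that did not pass (adjusted p = 0.0823). In the wild-type-labelled arrays Calb1 read 17.6, 100.2 and 34.1 at 48 h, against 938, 1412.5 and 1415 at 0 h, and the changes differed by 2.57 ± 0.45 (adjusted p = 0.00253). All wild-type-labelled 48 h arrays were below the floor, so this difference is a lower bound. No difference was called for Omp and Slc8a1: the changes of Omp differed by 0.17 ± 0.15 (adjusted p = 0.557) and those of Slc8a1 by -0.35 ± 0.16 (adjusted p = 0.237), which does not show that the changes are equal.

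**Figure D5:**
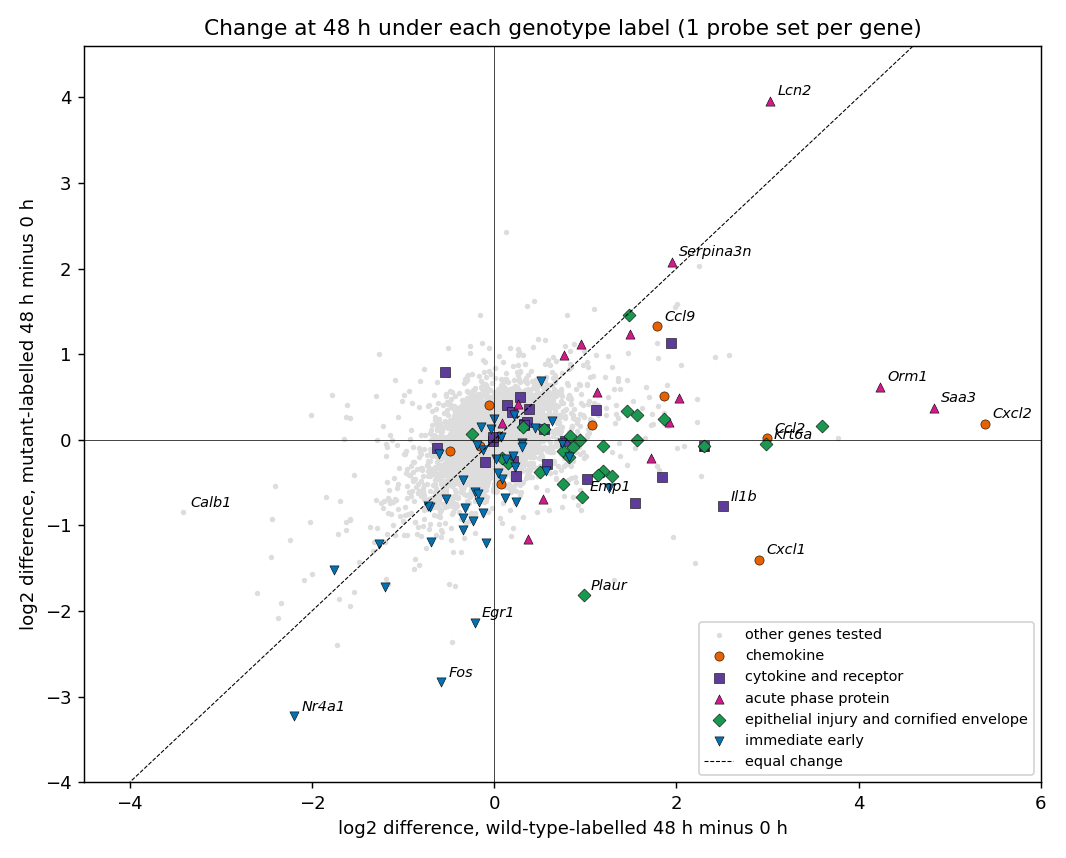
Log2 difference between 48 h and 0 h in the mutant-labelled arrays (vertical axis) against that in the wild-type-labelled arrays (horizontal axis), 1 probe set per gene. Coloured points are members of 5 lists, grey points other genes, and the dashed line marks equal change. Cxcl2 and Saa3 lie at the far right with little mutant-labelled change, and Lcn2 and Serpina3n changed under both labels.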

How the data were processed

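The values are hybridisation intensities of 12488 probe sets on 30 arrays, deposited by the authors as linear signals of MAS5, per the submitters' processing notes, without a version. In the deposited table the 2% trimmed mean is the same on every array to within rounding, per the values themselves, and no detection calls were used. The precision is limited by 3 arrays per group. Groups came from the labels. Signals were raised to the 25th percentile of all arrays (115.9) and log2 transformed. The 6917 probe sets with at least 3 of 27 arrays above the pooled median of 578.5 were tested, 5505 were not, and 66 control probe sets were left out. No member of a list that failed this filter is counted as tested.

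One linear model with 9 groups was fitted in R 4.3.3 with limma 3.58.1, with Benjamini-Hochberg adjustment at 0.05. It was tested on simulated data. The contrasts were mutant-labelled 48 h against 0 h, 48 h against 16 h, 16 h and 8 h against 0 h, wild-type-labelled 48 h against 0 h, and the difference of the 48 h changes. The Msr1 probe sets, which failed the filter, were compared with an exact permutation test. Tables and figures were made in Python 3.11.15 with numpy 2.4.6, pandas 2.3.3 and matplotlib 3.10.9.

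Genes came from the platform annotation, with 10833 probe sets of 1 gene, 396 of several and 1193 of none, so that 6274 tested probe sets had 1 gene. Each gene was counted through its brightest probe set. Genes named are the 12 largest rises and 12 largest falls whose arrays do not overlap, up to 4 called members of each list by size of change, the 8 smallest p for the difference between labels, and Msr1, Omp, Gap43, Cd68 and Calb1. The members and lists were chosen with earlier results of these data known. Alternatives were testing all probe sets, adding 16 to signals without a floor, quantile normalization, a replicate block, a trended robust prior, all 30 arrays, only the arrays compared, every probe set of a gene, and leaving out each array in turn.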

Additional observations from a re-analysis of the deposited data

Results flagged for a closer look

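The changes at 48 h against 0 h differed between the mutant-labelled and wild-type-labelled arrays, by the test of the difference in limma, for 291 probe sets, and the values below are log2, mutant-labelled change minus wild-type-labelled change. Among named genes the negative differences were -5.20 for Cxcl2, -4.45 for Saa3, -3.75 for Mmp3, -2.95 for Dio2, -2.80 for Plaur, -2.25 for Fos, -1.92 for Egr1, -1.63 for Emp1, -1.54 for Cebpd, -1.32 for Sfn, -1.23 for Cebpb, -1.12 for Ier2, -0.84 for Pdia3 and -0.68 for Hspa5. The positive ones were 0.91 for Abcc5, 0.99 for Npy, 1.20 for Rgn, 1.35 for Azgp1 and 2.57 for Calb1. Azgp1 passed in 3 and Npy in 2 of the 12 fits that left out 1 array, Cebpd in 7, Rgn in 9 and Pdia3 in 11, and the others in all 12. In a fit of the 12 arrays alone Sfn (adjusted p = 0.0767), Cebpd (0.062), Pdia3 (0.0576), Azgp1 (0.112) and Npy (0.112) did not pass. Groups of 3 arrays were not searched for single arrays that stand apart.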

How the results depend on the processing

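The count of called probe sets between mutant-labelled 48 h and 0 h (916) was 775 with no filter, 921 with a pseudocount, 862 after quantile normalization, 947 with a trended robust prior and 659 with all 30 arrays, but 204 with only the 6 arrays compared. Leaving out 1 array gave 548 to 1169. Fits of only the arrays compared also moved the difference between labels (291) to 85, mutant-labelled 48 h against 16 h (624) to 58 and 16 h against 0 h (356) to 147, while leaving out 1 array gave 133 to 413 for the difference and 827 to 1188 for wild-type-labelled 48 h against 0 h (1310). The smaller fits have fewer arrays to estimate the spread. They also take it from fewer groups, and the groups differ in spread. The median SD was 0.196 in mutant-labelled 48 h arrays and 0.142 in mutant-labelled 0 h arrays. In wild-type-labelled arrays it was 0.148 at 48 h and 0.131 at 0 h. A spread shared over 27 arrays can therefore understate that of the mutant-labelled 48 h arrays. The part of either in the counts was not tested. With the replicate number as a replicate block 880 were called. The numbers were not treated as pairing the arrays, since deviations of same-numbered 48 h and 0 h arrays correlated at -0.02, -0.005 and 0.07 in mutant-labelled and at 0.09, 0.13 and 0.09 in wild-type-labelled arrays.

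Of 136 named genes called, 59 stayed called under all 13 alternatives, 81 without any 1 array, and none reversed. Reversals touched genes that were not called: Mmp3 had -0.49 with a pseudocount, leaving out 1 array gave -0.0864 (without 48 h replicate 3) to 0.3229 for Cxcl2 and -0.0748 (without 48 h replicate 1) to 0.4107 for Gap43, which also had -0.02 without 0 h replicate 3. Leaving out each array for the list counts was chosen after seeing the data. Signals near the floor of 115.9 limit Cxcl2, Saa3, Mmp3, Plaur, Epha5, Mob2 and Calb1.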
